A study of Mustela putorius furo with 8 samples.

Results

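PDX1, SOX9, FOXA2, GATA6, GATA4, ONECUT1, PTF1A, NR5A2 and PROX1 are 9 transcription factors that mark or build the pancreatic progenitor. They are described here in cultured ferret pancreatic duct cells of wild-type and CFTR-knockout genotype. They were taken by their symbols, and all 9 are among the 27912 genes of the count matrices. Of the 9, 8 had at least 30 unique molecular identifiers (UMIs, each standing for 1 captured transcript) over the 8 libraries and were compared. PTF1A, the factor that commits progenitors to the acinar fate, had 0 UMIs in every library.

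The cells came from pancreatic ducts of newborn ferrets aged 1 to 3 days. All cultures had been grown for 10 passages in PneumaCult media on 804G-coated surfaces, a coating also used for airway basal cells, and were then polarized at an air-liquid interface, where the apical side faces air. The wild-type (WT) and the CFTR KO/KO (CF) genotype were each measured at day 2, 5, 7 and 9 of the interface by droplet single-cell RNA sequencing, with 1 library for each genotype and day. Donors of a genotype were pooled, and the study gives a difference in PDX1 between the pooled donors of the genotypes, so the PDX1 difference below describes these cultures and is not independent evidence of an effect of genotype. There are no replicates, and every interval is a 95% interval of counting error alone.

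The retained cells numbered 32945 of 44243 barcodes, between 1607 and 6224 in a library, with median depths from 14949 to 23427 UMIs and library sums from 34735952 to 114585136 UMIs. Epithelial markers made up 6521 to 7566 CPM (UMIs of a gene scaled to a library total of 1e6) in WT and 5987 to 7072 CPM in CF, while the 4 endothelial markers summed to at most 0.259 CPM. Of the 5 immune markers only CD68 was tested, at 3.88, 5.48, 6.17 and 9.29 CPM in WT and 20.9, 7.61, 4.43 and 6.06 CPM in CF in day order, and the pan-leukocyte gene PTPRC held at most 2 UMIs in a library. CD68 was thus higher in CF at day 2, when several members also differed most, and its part in those differences was not tested. The 7 mesenchymal markers summed to 2.30 to 5.79 CPM in WT and 1.54 to 30.2 CPM in CF. CFTR itself kept 256 to 621 UMIs in a CF library. It stood at 2.50, 8.69, 11.1 and 11.4 CPM in CF and 6.57, 16.9, 15.9 and 29.5 CPM in WT, in day order. The matrices do not show which part of the gene these UMIs came from, so CFTR does not check the genotype labels. The CF day 7 library held 411 of its 1607 cells under 3000 UMIs, the most of any library. The barcode sequences of 297 retained cells recurred in another library, and leaving these cells out moved no member beyond its counting interval.

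In the embryo the pancreas buds from foregut endoderm at sites where PDX1 switches on. FOXA2, GATA4 and GATA6 act upstream as endoderm factors that open chromatin, ONECUT1 (HNF6) and PROX1 act in the early bud and its duct-forming trunk, and SOX9 keeps the progenitors dividing and later marks ducts. PTF1A and the nuclear receptor NR5A2 belong to the acinar side, and in the adult PDX1 is highest in beta cells and low or absent in duct cells.

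PDX1, NR5A2 and FOXA2 were higher in CF than in WT in every pair of libraries. The 4 CF values of each lay above its 4 WT values, as did those of 9.25% of all 15921 genes tested, and no member lay below in the same way, against 8.89% of genes. On the log2(CPM + 1) scale, 3 of 8 members were at least 2-fold apart at day 2, where 7.42% of all genes were (PDX1, NR5A2 and FOXA2). At day 5, 7 and 9 there were 2 of 8 (PDX1 and NR5A2), where 6.28%, 7.42% and 6.65% of genes were. PDX1 and NR5A2 were at least 2-fold higher in CF at all 4 days, as were 0.980% of genes, and no member was 2-fold lower at all 4 days, against 1.31% of genes. The median log2 difference of the 8 members was 0.61, -0.00, 0.17 and 0.20 in day order, beside -0.00, -0.04, 0.10 and 0.06 over all genes tested. Of the 8, GATA4 and ONECUT1 stood below 1 CPM in every library, where a pseudocount of 1 CPM leaves no room for a 2-fold call.

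**Figure D1:**
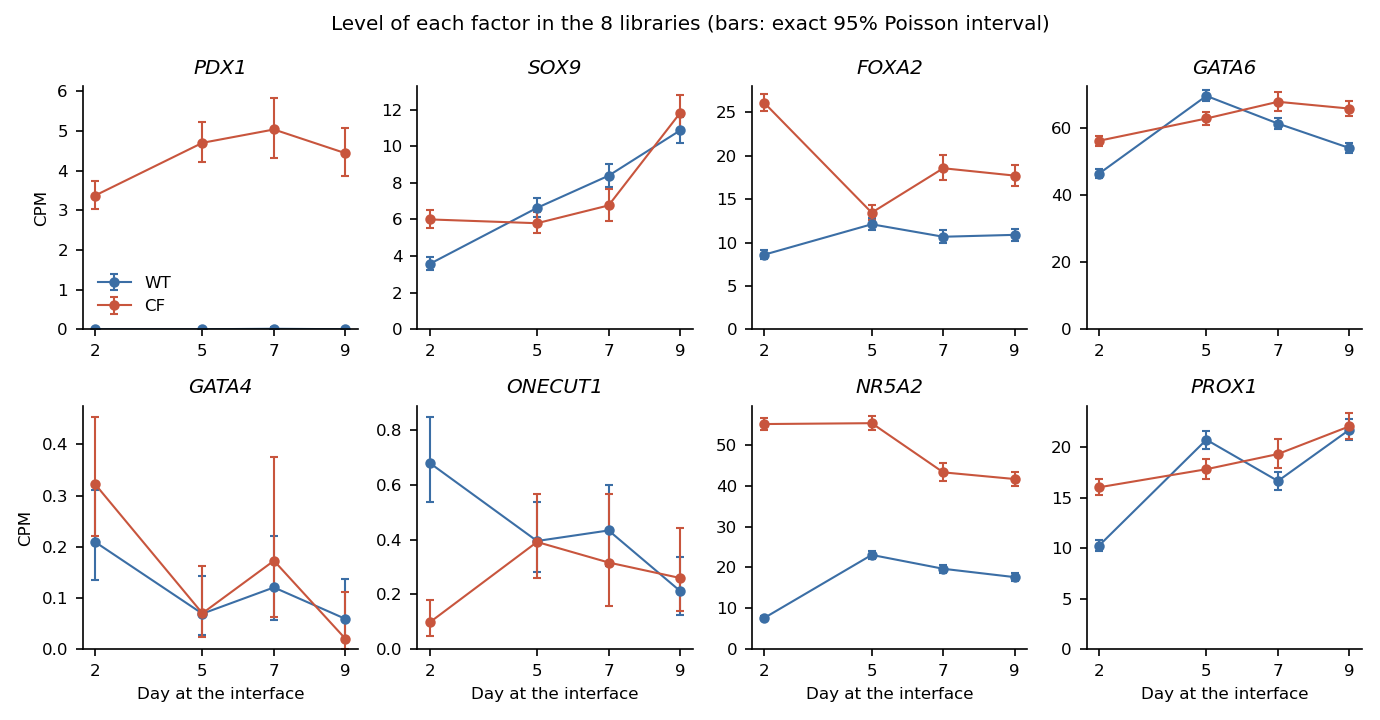
Level of the 8 detected factors in CPM (vertical axes, each with its own scale) against day at the interface, for the WT and the CF library of each day; bars are exact 95% Poisson intervals of the UMI sum. PDX1 is near 0 in WT and 3.37 to 5.04 CPM in CF, the CF points of NR5A2 and FOXA2 lie above every WT point, and those of the other 5 factors overlap.

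PDX1, the master regulator of pancreas formation, starts at position 3107340 and ends at 3113853 of its sequence in the ferret assembly ASM1176430v1.1, and the annotation names no chromosome. Its UMI sums in CF (345, 336, 175 and 222 in day order, against 0, 0, 1 and 0 in WT) gave 3.37 (3.03 to 3.75), 4.70 (4.21 to 5.23), 5.04 (4.32 to 5.84) and 4.44 (3.87 to 5.06) CPM. The day 2 level was thus the lowest of the 4, and the intervals of the other 3 days overlapped. From day 2 to day 9 the level in CF differed 1.32-fold (1.11 to 1.56), short of 2-fold. The log2 difference was 0.32, and the median of all genes in that comparison was 0.13, or -0.01 with TMM scaling. TMM factors of 0.903 for the CF day 2 and 1.09 for the CF day 9 library make the PDX1 change smaller. The interval covers counting error with the main scaling only. The mesenchymal markers summed to 8.27, 1.54, 30.2 and 21.2 CPM in CF and 2.30, 4.05, 4.75 and 5.79 CPM in WT. Their members differed in direction: PDGFRA was at 0.547, 1.4, 2.13 and 1.82 CPM in CF and 2.29, 3.33, 4.62 and 5.51 CPM in WT, while the collagen gene COL1A1 was at 4.49, 0.084, 18.9 and 13.2 CPM in CF and 0, 0.652, 0.072 and 0.153 CPM in WT. Their part in the PDX1 difference was not tested.

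The gene annotated next before PDX1 was also higher in CF, at far fewer counts. This gene, LOC101686836, had UMI sums of 3, 7, 3 and 7 for WT, and of 11, 17, 16 and 15 for CF, in day order. CF over WT was 4.11 (1.08 to 22.9), 3.44 (1.36 to 9.81), 12.7 (3.65 to 68.2) and 3.63 (1.39 to 10.5), so every interval lay above 1. It stood below 1 CPM in every library, where a pseudocount of 1 CPM leaves no room for a 2-fold call, and it was singled out after its values were seen. The homeobox genes GSX1 and CDX2, which flank PDX1 in mammals, held 0 UMIs in every library. Of the 5 neighbours on each side, 5 of 10 were tested, and 0 were called 2-fold apart in 1 direction at all 4 days, where 0.980% of genes were higher and 1.31% lower. The tested neighbours LOC101687124 and LOC123389030 also stood below 1 CPM in every library, so only POLR1D and LOC123389026 could have been called.

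NR5A2 (808924 to 947491 of its sequence), a nuclear receptor of early endoderm and of acinar cells, stood at 7.64, 23.1, 19.7 and 17.6 CPM in WT and 55.1, 55.3, 43.3 and 41.6 CPM in CF. The lowest CF library was above the highest WT library. CF exceeded WT 7.21-fold (6.71 to 7.75) at day 2 and 2.40-fold (2.28 to 2.53), 2.20-fold (2.05 to 2.36) and 2.36-fold (2.21 to 2.53) at day 5, 7 and 9. The gap was widest at day 2, when WT was lowest. A second annotated gene, LOC123392335, lies within the positions of NR5A2 with 8733 UMIs, and with both summed the log2 differences were 1.22, 0.84, 0.74 and 0.93 in place of 2.70, 1.23, 1.1 and 1.20. The day 7 difference passed 2-fold narrowly, and it was 0.90 with TMM scaling and 0.94 with DESeq2 size factors.

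FOXA2 (9361570 to 9365924), a pioneer factor needed for PDX1 expression in the embryo, stood at 8.60, 12.1, 10.7 and 10.9 CPM in WT and 26.1, 13.4, 18.6 and 17.7 CPM in CF. The genotypes were closest at day 5 and farthest apart at day 2. Relative to WT, the CF level was 3.03 (2.82 to 3.27), 1.11 (1.02 to 1.21), 1.74 (1.57 to 1.93) and 1.63 (1.48 to 1.79) times as high, so it passed 2-fold at day 2 alone.

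SOX9 (240292 to 245831), which maintains the progenitor pool and marks ducts, stood at 3.57, 6.63, 8.39 and 10.9 CPM in WT and 6.0, 5.79, 6.77 and 11.8 CPM in CF. The genotypes overlapped. CF over WT was 1.68 (1.48 to 1.91) at day 2, 0.874 (0.771 to 0.989) at day 5, 0.806 (0.693 to 0.936) at day 7 and 1.09 (0.979 to 1.21) at day 9, where the log2 difference of 0.11 became -0.01 with TMM scaling. Most of the SOX9 of the CF day 9 library came from a single cluster: cluster 7, led by the secreted factors WFDC2, TFF1, TFF2 and BPIFB1, held 337 of 591 SOX9 UMIs (57.0%) and 28.3% of the library. SOX9 was at 23.8 CPM in that cluster and at 7.09 CPM in the rest of the library. Of the 493 cells of cluster 7, 473 came from day 9.

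PROX1 (281224 to 333731), a homeobox factor of the early bud that persists in ducts and endocrine cells, ranged from 10.3 to 21.8 CPM in WT and from 16.0 to 22.1 CPM in CF. CF over WT was 1.56 (1.45 to 1.69), 0.859 (0.801 to 0.922), 1.16 (1.06 to 1.27) and 1.02 (0.942 to 1.1) in day order. Day 2 was the only day on which its log2 difference (0.60) was over 0.5, and the day 9 difference of 0.02 became -0.10 with TMM scaling and -0.08 with DESeq2 size factors.

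GATA6 (18527961 to 18558792), an endoderm factor on which human pancreas formation depends, stood at 46.3, 69.5, 61.2 and 53.9 CPM in WT and 56.1, 62.7, 67.7 and 65.7 CPM in CF. CF over WT was 1.21 (1.17 to 1.26), 0.903 (0.870 to 0.938), 1.11 (1.05 to 1.16) and 1.22 (1.16 to 1.27), and the day 7 log2 difference of 0.14 became -0.06 with TMM and -0.01 with DESeq2 scaling. Its partner GATA4 (19700168 to 19783283) was scarce, with UMI sums of 24, 7, 10 and 5 for WT, and of 33, 5, 6 and 1 for CF. At day 2, where GATA4 counts were highest, CF over WT was 1.54 (0.883 to 2.72), a difference that counting error covers.

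ONECUT1 (18407711 to 18451592), which acts upstream of PDX1 and of duct formation, had UMI sums of 78, 40, 36 and 18 for WT, and of 10, 28, 11 and 13 for CF. It was lower in CF at day 2, with a ratio of 0.144 (0.066 to 0.278), and the intervals at day 5, 7 and 9 included 1. On the log2(CPM + 1) scale the day 2 difference was -0.61, since the gene stood below 1 CPM in every library. No difference in PTF1A (3744699 to 3746424) was detectable, because 3 UMIs, the limit that a count of 0 allows, were not reached in any library.

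Over time, SOX9, NR5A2 and PROX1 rose in WT by at least 2-fold between day 2 and day 9, 3 of 8 members where 12.1% of all genes were 2-fold apart. Only SOX9 kept this with another scaling, since the log2 difference of NR5A2 became 0.93 with TMM and 0.97 with DESeq2 scaling and that of PROX1 0.83 and 0.87. No member was 2-fold apart in CF, where 8.54% of genes were. The ratio of day 9 to day 2 was 3.04 (2.71 to 3.43) in WT and 1.97 (1.76 to 2.21) in CF for SOX9, and 2.12 (1.97 to 2.28) in WT and 1.38 (1.28 to 1.49) in CF for PROX1. For NR5A2 it was 2.30 (2.12 to 2.51) in WT and 0.756 (0.718 to 0.795) in CF, and for FOXA2 1.27 (1.16 to 1.39) in WT and 0.679 (0.629 to 0.733) in CF. These latter factors thus had a higher day 9 value in the WT library sums and a lower one in CF. Of these changes only that of NR5A2 in WT passed 2-fold, which it did not with TMM or DESeq2 scaling. Within each of the kinds of WT cells set apart below, FOXA2 was lower at day 9 than at day 2. In GATA6 the day 9 to day 2 log2 difference in CF, 0.22, became -0.04 with TMM and -0.00 with DESeq2 scaling, and the median of all genes in that comparison moved from 0.13 to -0.01 with TMM. The day 9 and day 2 libraries were different cultures, 1 each, so a culture and a day cannot be told apart.

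The WT libraries held cells of 2 kinds with respect to SOX2, which is not a member, and of the members NR5A2 and FOXA2 followed this division. SOX2, a factor of the anterior foregut that becomes esophagus, stomach and airway, was at 50.6 CPM or more in 29 of the 41 WT clusters and at 4.87 CPM or less in the other 12, and it was at most 1.08 CPM in the 30 CF clusters. The clusters are those of the authors, and the limit of 10 CPM that parts them was set with these values known. The SOX2-low clusters held 5479 of 21600 WT cells: 14.3% (13.5% to 15.2%) of the day 2 cells, 33.8% (32.5% to 35.1%) at day 5, 27.5% (26.3% to 28.8%) at day 7 and 27.9% (26.7% to 29.1%) at day 9.

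NR5A2 was almost confined to the SOX2-low part of the WT cells. It stood there at 56.0, 49.7, 52.7 and 52.3 CPM in day order, against 0.531, 0.475, 2.28 and 2.44 CPM in the SOX2-high cells, which is 106-fold (80.0 to 142), 105-fold (71.3 to 161), 23.1-fold (19.2 to 27.9) and 21.4-fold (18.0 to 25.6) more. FOXA2 followed the same division less sharply, at 37.7, 21.9, 22.5 and 28.5 CPM in the SOX2-low and 4.32, 3.78, 4.43 and 3.15 CPM in the SOX2-high cells. Among the SOX2-high clusters of at least 50 cells with a median of at least 5000 UMIs, 2 stood apart, cluster 29 with 27.8 CPM and cluster 36 with 29.5 CPM of NR5A2; cluster 36 also had 22.9 CPM of FOXA2 and the lowest SOX2 of the set.

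**Figure D2:**
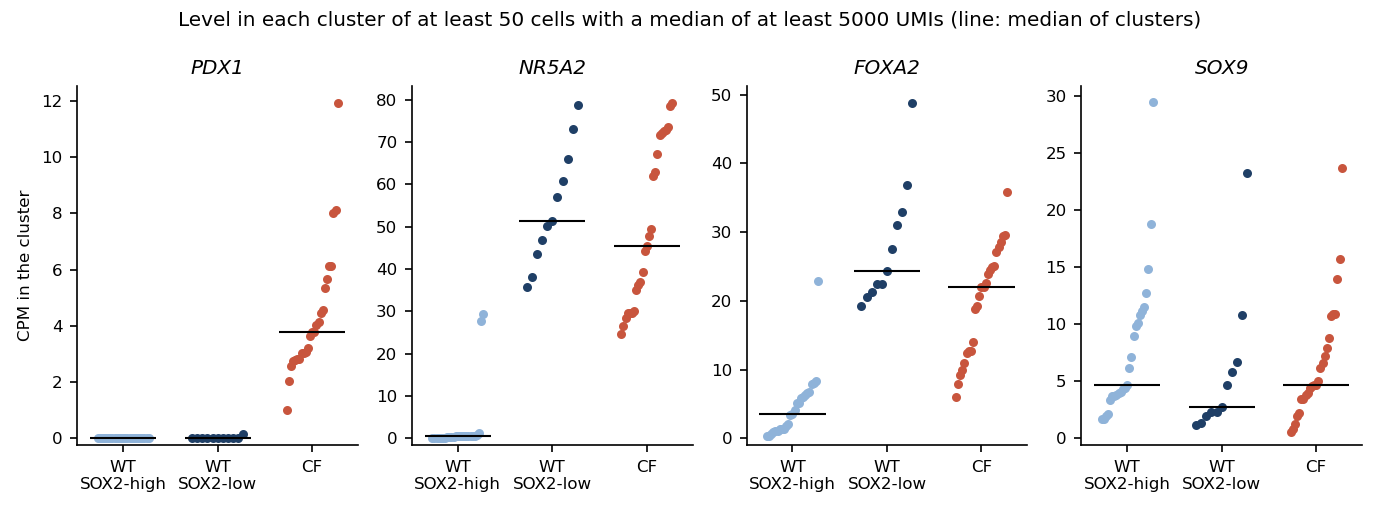
Level of 4 factors in CPM (vertical axes) in each cluster of at least 50 cells with a median of at least 5000 UMIs, for 25 SOX2-high WT, 11 SOX2-low WT and 25 CF clusters; each point is a cluster, ordered by level, and the line is the median of the clusters. NR5A2 has a median of 0.467 CPM in the SOX2-high, 51.4 in the SOX2-low and 45.5 in the CF clusters, FOXA2 has 3.54, 24.4 and 22.1, SOX9 has 4.67, 2.72 and 4.70, and PDX1 is at 0 in all but 1 WT cluster.

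Against the SOX2-low WT cells alone, the CF cells kept their difference in PDX1 and not those in NR5A2 and FOXA2. NR5A2 was then 0.983 (0.914 to 1.06), 1.11 (1.06 to 1.17), 0.822 (0.765 to 0.883) and 0.797 (0.744 to 0.854) times the WT level, and FOXA2 was 0.692 (0.631 to 0.759), 0.613 (0.560 to 0.670), 0.825 (0.739 to 0.922) and 0.621 (0.562 to 0.685) times. FOXA2 was thus lower in CF than in these WT cells at each day, by less than 2-fold. PROX1 was at 17.3, 18.3, 19.7 and 23.8 CPM in the SOX2-low WT cells and at 16.0, 17.8, 19.3 and 22.1 CPM in CF, and GATA6 at 60.1, 72.9, 65.0 and 70.8 CPM and at 56.1, 62.7, 67.7 and 65.7 CPM. Both factors differed by less than 2-fold at each day. For ONECUT1 at day 2, SOX2-high cells held 74 of the 78 WT UMIs and SOX2-low cells 4. CF was 0.359 (0.103 to 1.57) times the SOX2-low WT level, an interval that includes 1, against 0.144 times that of all WT cells.

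SOX9 behaved otherwise, with 6.95, 2.03, 5.45 and 8.33 CPM in the SOX2-low and 3.07, 10.5, 9.94 and 12.0 CPM in the SOX2-high WT cells. It was the higher of the pair in SOX2-low cells at day 2 and the lower at day 5, 7 and 9. CF over SOX2-low WT was 0.864 (0.700 to 1.08), 2.86 (2.28 to 3.62), 1.24 (1.01 to 1.53) and 1.42 (1.21 to 1.67). Of the PDX1 UMIs, 1 lay in a SOX2-low WT cell (day 7) and 0 in SOX2-high WT cells.

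In this comparison 1 of 8 members (PDX1) was at least 2-fold apart at day 2, 7 and 9, where 3.94%, 8.46% and 4.47% of 15063 genes were, and 2 of 8 (PDX1 and SOX9) at day 5, where 6.91% of genes were. Over time no member was 2-fold apart between day 9 and day 2 in the SOX2-low WT cells, where 7.70% of genes were. In the SOX2-high WT cells SOX9 was at 3.07 CPM at day 2 and 12.0 CPM at day 9, and PROX1 at 9.23 and 20.9 CPM. FOXA2 was at 4.32 and 3.15 CPM there. No share of all genes was computed for that change.

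**Figure D3:**
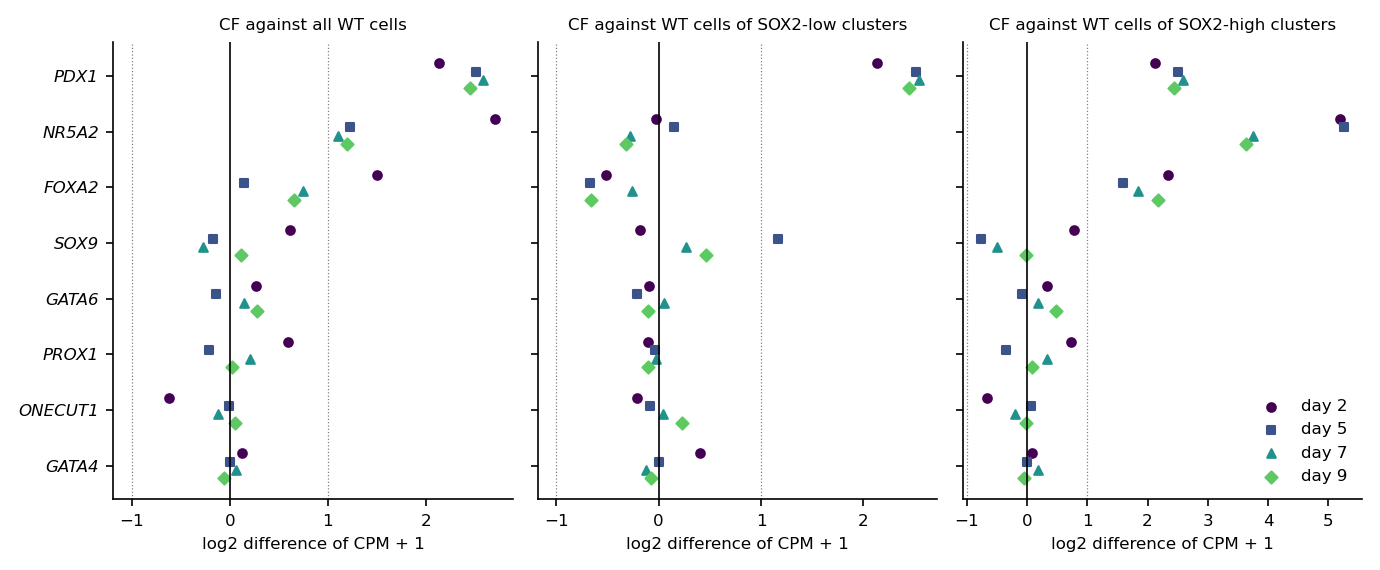
CF minus WT difference of each factor (horizontal axes, log2 of CPM + 1; dotted lines mark 2-fold) at the 4 days, against all WT cells, against WT cells of SOX2-low clusters and against WT cells of SOX2-high clusters. Against SOX2-low WT cells PDX1 stays at 2.13 to 2.54 while NR5A2 lies between -0.32 and 0.15 and FOXA2 between -0.67 and -0.26.

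Within the CF cultures PDX1 UMIs were counted in each of the 30 clusters but unevenly. No CF class is a cell type that should lack the gene, so no background share could be set beside these counts, and the part of free RNA in them was not tested. Among the 25 clusters of at least 50 cells with a median of at least 5000 UMIs, it ran from 0.997 CPM in cluster 28 to 11.9 (8.99 to 15.5) CPM in cluster 26, with a median of 3.77 CPM. Cluster 26, which the authors call ductal, is led by LY6D, TGFBI and the carbonic anhydrase family member CA10, and its 193 cells came from all 4 days, 52, 96, 25 and 20 in day order. Next were cluster 14 with 8.12 (6.37 to 10.2) CPM, led by TGFBI, PID1 and PLA2G7, and cluster 18 with 8.0 (6.32 to 9.98) CPM, led by CES1, TFF3 and SPINK1. The intervals of clusters 26, 14 and 18 all overlapped each other, so their order is not set beyond counting error. At the low end, cluster 28 was led by SERPINB2, FST and SFN and held 150 day 2 cells of 160, and cluster 7, the SOX9-rich one, was next with 2.03 CPM. The value of cluster 28 rests on few PDX1 UMIs, since the cluster summed to 3008509 UMIs.

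Some of the clusters high in PDX1 were low in FOXA2 or SOX9. Cluster 26 had the lowest FOXA2 of the 25 clusters, at 6.08 CPM, and cluster 14 the lowest SOX9, at 0.556 CPM. The highest FOXA2 was 35.8 CPM in cluster 9, led by SCGB1A1 and proliferation genes, and the highest NR5A2 was 79.3 CPM in cluster 4. Across 29 CF clusters Pearson's r of PDX1 was -0.56 with FOXA2, -0.12 with SOX9, -0.07 with GATA6, 0.10 with NR5A2 and 0.02 with PROX1, as a description of clusters that share libraries and differ in depth. These 29 include clusters 13, 21, 23 and 27, which have median depths of 1018 to 4718 UMIs and are outside the 25. Values of r without them were not computed.

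**Figure D4:**
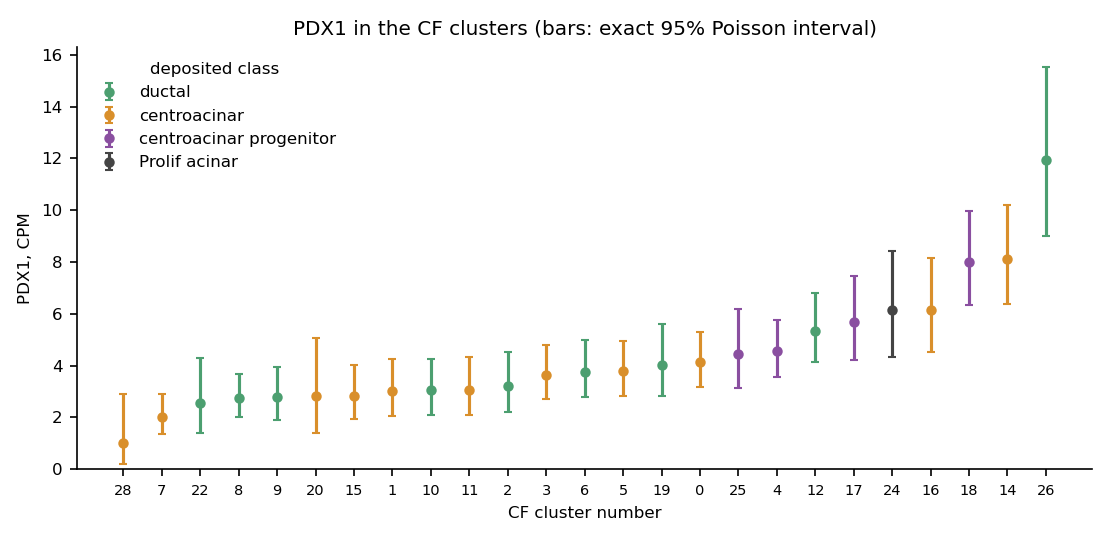
PDX1 level in CPM (vertical axis) in the 25 CF clusters, ordered by level along the horizontal axis and coloured by deposited class; bars are exact 95% Poisson intervals. Cluster 26 is highest at 11.9 CPM, clusters 14 and 18 follow at about 8, and the ductal and centroacinar classes each hold clusters under 3 CPM and over 5 CPM.

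Pooled over the days by the authors' classes, PDX1 in CF was at 6.13 (4.34 to 8.41) CPM in Prolif_acinar cells, 5.65 (4.95 to 6.41) in centroacinar progenitors, 3.89 (3.50 to 4.30) in ductal and 3.76 (3.41 to 4.13) in centroacinar cells. The classes held different shares of the days, and 2593 of the 3583 ductal cells came from day 2, when PDX1 was lowest. By single days PDX1 was at 3.10, 5.65, 6.25 and 5.21 CPM in ductal cells and at 2.64, 3.54, 4.49 and 4.04 CPM in centroacinar cells. The ductal point value was thus the higher of the pair at each day. Counting intervals of these daily values are not given here, so whether the order goes beyond counting error is not stated. The spread within the ductal class alone, from 2.56 CPM in cluster 22 to 11.9 CPM in cluster 26, was wider than that between classes. Of the 3 larger CF classes, SOX9 was highest in the centroacinar progenitors, pooled and at each day, at 11.9 CPM against 6.07 in ductal and 6.48 in centroacinar cells, as was NR5A2, at 74.1 CPM against 58.5 and 36.6 CPM. FOXA2 was lowest there, at 14.8 CPM against 21.4 and 20.4 CPM, except at day 5, when ductal cells were lower. NR5A2 had another order in WT, at 0.431 CPM in centroacinar progenitors against 24.1 CPM in ductal cells. FOXA2 was lowest in the progenitors there too, at 1.02 CPM against 14.8 CPM in ductal cells. A class name therefore did not stand for like levels of these factors in both genotypes. In WT every centroacinar progenitor cluster was SOX2-high, at 71.0 to 138 CPM of SOX2, while the ductal class held SOX2-low and SOX2-high clusters. The part of this division in the class levels was not tested. In the kept clusters, defined below, NR5A2 was at 0.548 CPM in WT centroacinar progenitors and 24.3 CPM in WT ductal cells. The PTF1A count was 0 in the 663 WT and 200 CF cells named Prolif_acinar and in the 343 WT cells named acinar.

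The genes whose levels over clusters were most like those of a member were found among 10653 genes in 39 WT clusters and 10516 genes in 29 CF clusters, by Pearson's r of log2(CPM + 1). Shallow clusters left out of the level ranges are included (13, 21, 23 and 27 in CF, and 20, 35 and 38 in WT). The part of their low counts in r was not tested. For PDX1 in CF they were ASCC1 (0.82), LOC106004129 (0.80) and PNMA2 (0.79). For NR5A2 in WT they were RHOV (0.99), TSPAN15 (0.99) and SOX7 (0.98), and for FOXA2 in WT they were SRC (0.95), GATA3 (0.93) and ARL14 (0.92). In CF, where no cluster was SOX2-high, the closest to NR5A2 was OCLN (0.93) and the closest to FOXA2 was AP1M1 (0.82). Between members, FOXA2 and NR5A2 ran together over WT clusters (r of 0.86) and against each other over CF clusters (r of -0.36).

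In single cells, thinned to 10000 UMIs each so that depth was equal, PDX1 was seen in 3.42%, 4.92%, 4.49% and 3.82% of CF cells in day order. In WT it was seen in 0 cells of each library, which limits the share of cells with a PDX1 UMI at this depth to at most 0.053% to 0.073%, and not the share of cells that express the gene. The cells used had median depths of 19116 to 28411 UMIs in CF and 15804 to 18029 UMIs in WT before thinning. Without thinning, and with every cell, the CF shares were 6.87%, 10.5%, 9.40% and 7.23% and the highest WT share was 0.022%. A cell with PDX1 held 1.03 to 1.12 PDX1 UMIs on average after thinning, so nearly all detections rest on 1 molecule. Over CF clusters the share ran from 1.25% (0.461% to 2.71%) in cluster 7 to 11.1% (6.97% to 16.4%) in cluster 26.

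GATA4 and ONECUT1 were seen in under 0.5% of the cells of each CF library. NR5A2 was seen in 37.1%, 37.3%, 32.1% and 30.9% of CF cells and 4.94%, 14.5%, 13.6% and 12.5% of WT cells, and FOXA2 in 22.1%, 12.5%, 18.3% and 15.3% of CF cells and 7.25%, 8.52%, 8.54% and 8.82% of WT cells. SOX9 was seen in 5.12%, 4.27%, 6.04% and 7.93% of CF cells and 2.85%, 5.67%, 6.89% and 8.21% of WT cells. The median cell of either genotype held a UMI of 1 member, and no cell held more than 5. Cells with at least 3 members made up 8.86% of CF cells (881 of 9938) and 3.19% of WT cells (608 of 19079), and cells with none made up 22.5% and 41.8%.

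For the 5 members with enough joint cells to compare, no excess of cells with PDX1 and the other factor was detectable over separate chances within a library. PDX1 and SOX9 shared 21 CF cells where 22.0 were expected, a ratio of 0.956 (0.592 to 1.46). The ratio was 0.830 (0.629 to 1.08) for PDX1 with FOXA2, 0.999 (0.858 to 1.15) with GATA6, 0.901 (0.751 to 1.07) with NR5A2 and 0.951 (0.724 to 1.23) with PROX1. All 5 intervals include 1, and they leave room for an excess of up to 1.46 times for SOX9 and up to 1.08 times for FOXA2. For PDX1 with GATA4 and ONECUT1, 0 and 2 joint cells were too few to compare. Companions outside the 9 were alike, with 1.04 (0.901 to 1.20) for PAX6 and 0.967 (0.770 to 1.20) for ISL1.

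Of the WT pairs plotted, FOXA2 and NR5A2 lay farthest above expectation, in 449 cells where 176 were expected, a ratio of 2.55 (2.32 to 2.80). With the expectation taken within library and cluster the ratio was 1.03 (0.938 to 1.13). The excess therefore lay mostly between clusters, and none was detectable within them, where the interval leaves room for an excess of up to 1.13 times. NR5A2 and SOX2 shared 83 WT cells where 929 were expected (0.089, 0.071 to 0.111), and FOXA2 and SOX2 shared 314 where 735 were expected (0.427, 0.381 to 0.477). In CF, FOXA2 and NR5A2 showed no such excess, and SOX9 with NR5A2 was above its expectation, at 1.22 (1.07 to 1.39) within library and 1.04 (0.912 to 1.18) within library and cluster. In WT the same pair was below it, at 0.795 (0.651 to 0.963) within library and 1.05 (0.859 to 1.27) within library and cluster.

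**Figure D5:**
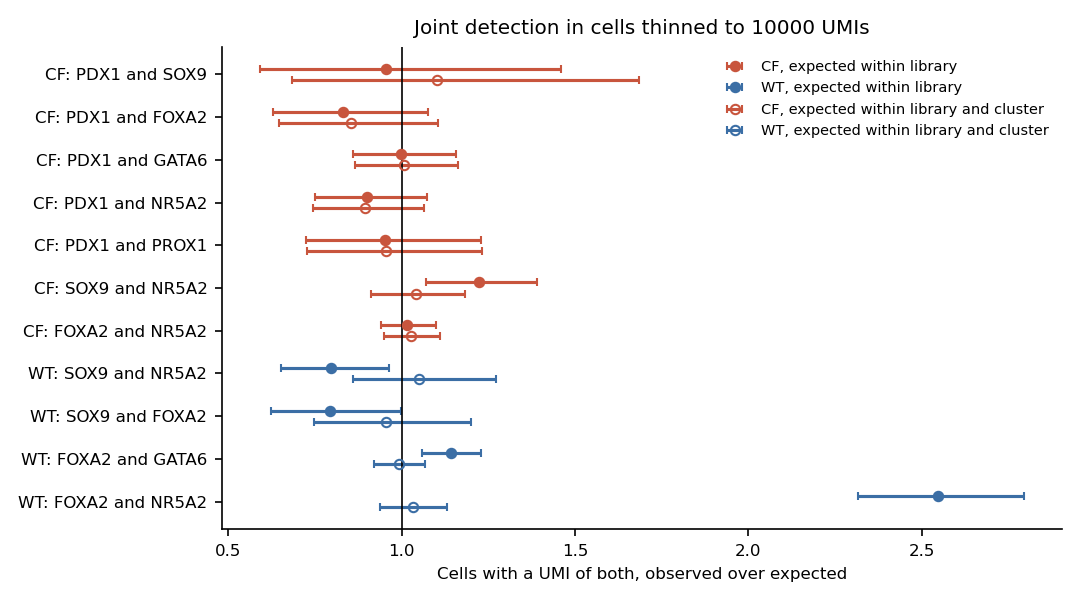
Cells with a UMI of both factors of a pair, observed over expected (horizontal axis), after thinning to 10000 UMIs; filled points take the expectation within each library, open points within each library and cluster, and bars are exact 95% Poisson intervals of the joint count. The 5 PDX1 pairs include 1, and the WT pair of FOXA2 and NR5A2 moves from 2.55 to 1.03 once clusters are held apart.

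Few of the other progenitor factors differed at every day. Of 27 further progenitor and foregut endoderm factors, 20 were tested, and 0 were 2-fold higher in CF at all 4 days (0.980% of all genes) and 1 lower (1.31% of all genes). The median log2 difference of the 20 was -0.08, 0.10, 0.08 and -0.18 in day order, beside -0.00, -0.04, 0.10 and 0.06 over all genes. The lower one was MEIS2, a homeobox cofactor of PDX1, at 10.1, 39.6, 25.5 and 17.9 CPM in WT and 3.82, 3.88, 5.82 and 4.84 CPM in CF. The Notch target HES1 was 0.498, 1.17, 0.875 and 0.496 times WT. ONECUT3 and NKX6-2 had 0 UMIs in every library.

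Of 12 listed PDX1 targets, INS, SLC2A2 and NEUROG3 had 0 UMIs in every library, and IAPP was not among the genes of the matrices. Of the 6 tested, 0 were 2-fold apart in 1 direction at all 4 days, beside 0.980% of all genes higher and 1.31% lower. MAFA and ONECUT1 stood below 1 CPM in every library and could not be called, and SOX9 and ONECUT1 are also members. MAFA, a beta cell factor of this list, was scarce, with UMI sums of 3, 15, 7 and 12 for WT, and of 24, 12, 7 and 23 for CF, and NKX6-1 had 1 UMI in all. FGFR1, a growth factor receptor gene of the list, was 0.183 (0.129 to 0.254) times WT at day 2 and 5.12 (3.62 to 7.38) times at day 9. Of 17 endocrine lineage genes, 8 were tested, and none was 2-fold apart in 1 direction at all 4 days, beside 0.980% of all genes higher and 1.31% lower. MAFA, RFX6 and CHGA among them stood below 1 CPM in every library and could not be called. NEUROG3, NEUROD1, PAX4, INS, GCG and PPY had 0 UMIs. At day 2, PAX6 was 2-fold higher in CF and NKX2-2 was lower, with 1 UMI in CF and 239 in WT.

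PAX6 followed the division of the WT cells that NR5A2 showed, with 117, 145, 115 and 81.2 CPM in the SOX2-low and 5.52, 2.79, 6.09 and 5.44 CPM in the SOX2-high WT cells, beside 84.0, 68.5, 57.1 and 47.5 CPM in CF. ISL1, which acts in endocrine precursors, was at 42.2, 58.1, 43.3 and 47.4 CPM in the SOX2-low WT cells and at 26.9, 26.3, 27.6 and 21.7 CPM in CF. Both endocrine factors were thus lower in CF than in SOX2-low WT cells at each day.

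Of 16 listed acinar symbols, of which MIST1 and BHLHA15 name the same gene, 7 are found in the matrices and 4 were tested, and of these NR5A2 alone was 2-fold higher in CF at all 4 days, as were 0.980% of all genes. The others tested, CELA1, BHLHA15 and RBPJL, stood below 1 CPM in every library and could not be called. Of 16 duct genes, 15 were tested; PROM1, a stem and duct surface protein, was 2-fold lower in CF at all 4 days, at 61.4, 131, 217 and 343 CPM in WT and 1.74, 9.49, 8.32 and 7.76 CPM in CF, and none was higher at all 4 days, where 1.31% of all genes were lower and 0.980% higher. The duct keratins differed in direction: KRT19 was 1.00, 0.891, 0.886 and 1.06 times WT, KRT7 was 1.86, 0.993, 1.57 and 1.44 times and KRT18 was 0.636, 0.463, 0.631 and 0.640 times. In the foregut list, SOX2 and the lung and thyroid factor NKX2-1, 2 of 4 tested, were 2-fold lower at all 4 days (1.31% of all genes), and the intestinal factor CDX2 had 0 UMIs.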

How the data were processed

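Per the labels and the study's methods, the authors aligned reads with Cell Ranger 5.0.1 to the ferret assembly ASM1176430v1.1 and deposited whole UMI count matrices for the 8 libraries. Per the same methods the authors, with R 4.1.2 and Seurat, kept cells of at least 200 genes with at most 20% mitochondrial reads. They removed doublets with DoubletFinder (no caller was run again) and merged without batch correction. The deposited cell table gives each cell a count of UMIs, a percent of mitochondrial UMIs, a cluster and a class. The authors' log-normalized and pseudotime tables were not used.

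UMIs of retained cells were summed by library, class and cluster and scaled to CPM. Genes with at least 30 UMIs over the 8 libraries were tested for a difference of at least 2-fold in CPM plus a pseudocount of 1, which understates the change of low genes. A gene below 1 CPM in both libraries of a comparison could not be called. With 1 library for each genotype and day no p-value was computed. Intervals (95%) are exact Poisson for sums, conditional binomial for ratios and Clopper-Pearson for shares. They cover counting error only, and a count of 0 was limited by 3 counts per library. For detection, cells were thinned to 10000 UMIs and shallower cells, 126 to 778 per library, were left out. Expected joint counts were the product of both shares times the cells, summed over libraries. Likeness was computed on clusters of at least 50 cells, shallow ones included, for members of at least 300 UMIs in a genotype. They were compared with genes that reached 10 CPM in some cluster, and the 3 genes of highest r were named.

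The members, the companion lists and the SOX2 limit were chosen with earlier results of these data known. Named genes were the members, the genes of the listed groups, and each cluster's leading genes (the highest folds among its 10). Python 3.11.15, numpy 2.4.6 and scipy 1.17.1 were used, with edgeR 4.0.16 and DESeq2 1.42.0 for scaling factors only. The joint detection and interval code was tested on simulated data. Alternatives were another scaling, pseudocount and filter, other sets of cells and clusters, and other thinning. Some genes of the companion lists are counted but not reported here.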

Additional observations from a re-analysis of the deposited data

Results flagged for a closer look

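With 1 library for each genotype and day, none of the differences listed here was tested. From day 2 to day 9, 3 factors moved in opposite directions in the library sums of the genotypes on the log2(CPM + 1) scale: FOXA2 by 0.31 in WT and -0.53 in CF, NR5A2 by 1.11 in WT and -0.40 in CF, and ONECUT1 by -0.47 in WT and 0.20 in CF. FOXA2 was lower at day 9 in both kinds of WT cells, at 37.7 and 28.5 CPM in SOX2-low and 4.32 and 3.15 CPM in SOX2-high cells. NR5A2 was at 56.0 and 52.3 CPM and at 0.531 and 2.44 CPM there. SOX2-low cells made up 14.3% of WT cells at day 2 and 27.9% at day 9, and the part of this share in the changes was not tested. ONECUT1 stood below 1 CPM in every library.

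With the main scaling and all WT cells, the CF minus WT difference changed sign between days in 3 factors whose counting intervals excluded equal levels on those days. SOX9 was at 0.62 at day 2, -0.17 at day 5 and -0.27 at day 7. GATA6 was at 0.27, -0.14, 0.14 and 0.28 at day 2, 5, 7 and 9, and its day 7 value became -0.06 with TMM and -0.01 with DESeq2 scaling. PROX1 was at 0.60, -0.21 and 0.20 at day 2, 5 and 7. TMM factors at day 7 of 1.14 in CF and 0.983 in WT make the last of these smaller. Against SOX2-low WT cells PROX1 was 0.928, 0.977, 0.980 and 0.929 times the WT level in day order, with no change of direction and intervals that include 1. SOX9 and GATA6 still had ratios on both sides of 1 against these cells.

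PDX1 was also counted in barcodes outside the cell table, which no comparison above uses. In these barcodes it stood at 2.47 (1.67 to 3.53), 3.54 (2.53 to 4.82), 3.77 (2.72 to 5.10) and 4.99 (3.51 to 6.87) CPM at day 2, 5, 7 and 9 in CF, from 30, 40, 42 and 37 UMIs. The same barcodes of the WT libraries held 1, 0, 0 and 1 PDX1 UMIs.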

How the results depend on the processing

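No paired analysis by replicate was possible because each genotype and day has 1 library. WT and CF share the days, and a model with day as a block over the 8 libraries was not run. PDX1 stayed at least 2-fold higher in CF at all 4 days with TMM and DESeq2 scaling, every barcode, cells of at least 3000 UMIs, kept clusters, no shared barcodes and either kind of WT cells, but not with a pseudocount of 5 CPM, where its log2 difference was 0.74, 0.96, 1.00 and 0.92 in day order. Over all settings, 132 of 176 counts and main values and 393 of 626 single values moved by less than the limits set for them, and 5 differences of at least 2-fold changed sign.

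These 5 came with SOX2-low WT cells as the comparison: FOXA2 at day 2 went to -0.52, NR5A2 at day 2, 7 and 9 to -0.024, -0.28 and -0.32, and the day 9 minus day 2 difference of NR5A2 in WT to -0.10. Differences under 2-fold changed sign more often, among them FOXA2 at day 5, 7 and 9 with these cells (-0.67, -0.26 and -0.66) and, with TMM or DESeq2 scaling, those of GATA6, SOX9, PROX1 and ONECUT1. With SOX2-low WT cells, 1 member was 2-fold apart at day 2, 7 and 9, and 594 of all genes at day 2 and 674 at day 9; over time in WT there were 0 members and 1160 genes. With SOX2-high WT cells alone 1749 genes were 2-fold apart at day 5 and 1626 at day 9.

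TMM and DESeq2 scaling each left 1 member 2-fold apart at day 7 and 1 over time in WT. The counts of all genes, 7.42% at day 7 and 12.1% over time in WT with the main scaling, moved by less than the limits set for them. A pseudocount of 5 CPM left 1 member at day 5, 7 and 9 and 0 over time in WT, and 526, 421, 524 and 515 genes at day 2, 5, 7 and 9, 1060 over time in WT and 619 in CF. Genes of a mean of at least 5 CPM gave 1 member at day 5, 7 and 9, since PDX1 was then below the filter, with 742, 575, 678 and 591 genes and 863 over time in CF. In the 58 kept clusters (dropped were those led by another class's markers, and shallow ones led by no marker of their own class), 1 member was 2-fold apart at day 7, where NR5A2 was at 0.87, and PDX1 in CF ductal cells was at 4.41 CPM. The count of all genes at day 7 moved there by less than its limit. With equal weight per cell PDX1 in CF was at 5.87 CPM at day 7 and 5.25 CPM at day 9.

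By single days PDX1 in CF was at 2.64 (day 2) and 4.49 (day 7) CPM in centroacinar cells, at 4.71 (day 2) and 7.04 (day 9) in centroacinar progenitors, and at 3.10, 5.65, 6.25 and 5.21 in ductal cells. Thinned to 3000 UMIs, PDX1 and SOX9 shared no cell, a ratio of 0 at a depth that leaves few joint detections. Without the CF day 7 library that ratio was 0.894 (0.521 to 1.43) at 10000 UMIs. Unthinned cells differ in depth. In these at day 2, NR5A2 was seen in 68.6% (63.1% to 73.7%) of CF cells with PDX1 and 55.6% (54.1% to 57.1%) of those without. SOX9 was seen in 15.5% (11.7% to 20.1%) and 9.40% (8.54% to 10.3%), and the day 9 intervals of both factors overlapped. Low counts limit GATA4, ONECUT1 and the pairs with PDX1. The cause of the other shifts was not tested.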
